A study of Mus musculus with 8 samples.

Results

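Of 116068 chromatin peaks measured in mouse alveolar epithelial nuclei, 9923 were selective for transitional nuclei, here those high in a keratin-rich gene score. The peaks were chosen from the measured values. Nuclei with at least 1000 RNA molecules (UMIs, unique molecular identifiers) were scored by the summed UMIs per 10000 of 5 type II genes (Sftpb, Napsa, Abca3, Lamp3, Slc34a2), 5 type I genes (Ager, Hopx, Rtkn2, Clic5, Lmo7) and 5 transitional genes (Krt8, Krt18, Krt19, Cldn4, Sfn). A nucleus entered a class when it lay in the top 25% of 1 score and of no other, had under 5 Sox9 UMIs and had under 50 UMIs per 10000 of the airway genes Scgb3a1 and Bpifa1 together. A peak was selective when it had at least 40 ATAC counts in the transitional class and a rate, its share of all counts in peaks of a class, at least 1.7 times that of both the type II and the type I class. Of the 75928 peaks with at least 40 transitional counts, 13.1% passed. The same rule gave 4649 peaks selective for type II nuclei and 1991 selective for type I nuclei.

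The nuclei came from alveolarspheres, three-dimensional cultures of type II cells of young and old mice in medium without serum or feeder cells. The spheres were infected on day 9 with an adeno-associated virus (AAV9) carrying Sox9 and Cre (Sox9-Cre, 2 RNA and 2 ATAC samples) or Cre alone (Cre, 2 RNA and 2 ATAC samples), and then kept for 4 days in a medium for type I differentiation. All groups share the virus, Cre, the medium and the sort of live cells for the red reporter tdTomato, so infected cultured cells, not lung tissue, were measured. Each nucleus gave both its RNA and, by ATAC-seq, its open chromatin. Both count matrices pool all samples in 4 barcode libraries, here called A to D, that no label ties to a sample, a virus or a mouse age. No Sox9-Cre against Cre comparison was therefore made, the pool counts as 1 sample without replicates, and no test between conditions is given. Intervals are exact 95% intervals and cover counting error only.

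When type II cells, the surfactant makers of the alveolus, turn into flat gas-exchanging type I cells, they pass through a transitional state with high keratin 8, claudin 4 and stratifin. This state appears after lung injury and in culture, and is known for stress, cytoskeletal, integrin and p53 genes. Much of what sets one cell state apart from another lies in enhancers, open stretches of DNA away from gene starts, which transcription factors such as AP-1 (FOS and JUN dimers), TEAD (the partners of YAP), NKX2-1 and CEBP factors bind by short sequence motifs.

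Sequence was at hand for promoters only, as 300-base windows for 27025 genes. Each window runs from 250 bases before to 50 after an annotated RefSeq gene start (GRCm38.p6). A peak need only overlap a window, so the letters describe gene starts and not the selective peaks as a whole. The 247 windows that selective peaks overlapped belong to 227 genes. The 6 below were picked after their values were seen, because their gene's RNA was also higher in transitional nuclei or, for Cldn4, served in the score. They are printed 5′ to 3′ on the gene's strand, with AP-1 letters (TGANTCA) and TEAD letters (GGAATG, either strand) in capitals. The windows are Emp1 at chr6:135362681-135362980 (plus strand), Sprr1a at chr3:92485832-92486131 (minus), Cldn4 at chr5:134946885-134947184 (minus), Ankrd1 at chr19:36119795-36120094 (minus), Anxa8 at chr14:34085729-34086028 (plus) and Tnip3 at chr6:65590148-65590447 (plus).
Emp1: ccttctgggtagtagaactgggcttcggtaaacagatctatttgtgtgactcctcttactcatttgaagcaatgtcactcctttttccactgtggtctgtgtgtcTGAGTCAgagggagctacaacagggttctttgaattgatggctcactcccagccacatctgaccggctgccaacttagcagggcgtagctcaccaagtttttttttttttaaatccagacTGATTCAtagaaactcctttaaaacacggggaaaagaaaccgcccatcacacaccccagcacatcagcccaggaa
Sprr1a: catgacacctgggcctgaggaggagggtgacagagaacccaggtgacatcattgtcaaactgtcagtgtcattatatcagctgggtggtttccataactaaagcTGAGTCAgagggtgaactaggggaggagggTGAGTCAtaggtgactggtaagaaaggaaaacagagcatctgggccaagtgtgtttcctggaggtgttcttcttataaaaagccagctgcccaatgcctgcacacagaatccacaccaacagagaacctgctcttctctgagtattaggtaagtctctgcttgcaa
Cldn4: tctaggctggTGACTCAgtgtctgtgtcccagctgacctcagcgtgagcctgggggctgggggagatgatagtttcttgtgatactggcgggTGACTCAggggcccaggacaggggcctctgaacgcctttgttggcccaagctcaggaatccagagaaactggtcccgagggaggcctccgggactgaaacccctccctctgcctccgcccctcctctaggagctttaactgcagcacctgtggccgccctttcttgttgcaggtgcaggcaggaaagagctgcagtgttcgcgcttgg
Ankrd1: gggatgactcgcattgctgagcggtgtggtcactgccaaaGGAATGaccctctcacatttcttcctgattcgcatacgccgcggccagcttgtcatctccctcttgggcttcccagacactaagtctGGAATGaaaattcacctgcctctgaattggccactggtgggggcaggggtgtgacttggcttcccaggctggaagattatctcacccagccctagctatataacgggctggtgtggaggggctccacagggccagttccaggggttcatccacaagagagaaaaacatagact
Anxa8: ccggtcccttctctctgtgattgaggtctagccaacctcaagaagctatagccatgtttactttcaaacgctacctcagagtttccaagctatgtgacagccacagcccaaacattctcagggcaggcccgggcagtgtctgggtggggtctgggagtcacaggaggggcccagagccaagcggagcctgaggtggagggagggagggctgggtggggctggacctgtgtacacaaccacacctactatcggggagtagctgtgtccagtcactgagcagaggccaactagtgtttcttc
Tnip3: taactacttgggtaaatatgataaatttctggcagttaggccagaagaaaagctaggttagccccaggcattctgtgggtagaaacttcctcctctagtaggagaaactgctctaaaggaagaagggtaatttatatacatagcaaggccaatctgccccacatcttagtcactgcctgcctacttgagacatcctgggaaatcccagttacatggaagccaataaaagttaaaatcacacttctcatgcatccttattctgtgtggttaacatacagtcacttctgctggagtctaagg
Emp1 (a 4-transmembrane epithelial membrane protein), Sprr1a (a small proline-rich protein of cornified and injured epithelia) and Cldn4 (a tight junction claudin) each carry a pair of AP-1 matches. Counted from the gene start, they begin at positions -145 and -25 in Emp1, -146 and -116 in Sprr1a and -240 and -158 in Cldn4. Ankrd1, a classical YAP target that encodes a cardiac ankyrin repeat protein, carries a pair of TEAD matches, beginning at positions -210 and -123. The windows of Anxa8 (a calcium-dependent membrane-binding annexin) and Tnip3 (an A20-binding inhibitor of NF-kB signalling) hold neither set of letters.

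AP-1 letters stood in 85 of the 247 promoter windows overlapped by selective peaks, 34.4% (28.5 to 40.7). They stood in 10.2% (5.94 to 16.02) of the 157 windows overlapped by type II-selective peaks, in 5.59% (5.23 to 5.97) of the 14995 windows overlapped by any peak with at least 40 transitional counts, and in 1 of 18 windows overlapped by type I-selective peaks. The windows of selective and of type II-selective peaks were alike in base content, with a median GC of 50.3% and 49.3% and a median of 4 CpG each. All tested windows were richer, at 61.3% GC and 21 CpG. Of the 102 AP-1 matches, 82 lay before the gene start, the median match centred at position -70, and 16 windows held at least 2. Each window has 250 of its 300 bases before the start, so the 82 matches do not by themselves show an upstream preference. Positions and repeated matches were not counted in the other window sets.

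Other motif letters did not set these windows apart from type II windows in the same way. TEAD letters occurred in 19.0% of windows under selective peaks, 17.8% under type II-selective peaks and 12.4% of all tested windows, and NKX2-1 letters (CACTTGA or CTCAAG) in 23.5%, 22.9% and 14.96%. CEBP letters (TTNCNNAA) were fewer under selective than under type II-selective peaks, at 44.5% (38.2 to 51.0) and 65.6% (57.6 to 73.0), against 30.1% of all tested windows. FOXA letters (TGTTTAC) occurred in 7.69% (4.69 to 11.8), 2.55% (0.698 to 6.39) and 2.77% of the windows in that order, intervals that overlap between the peak sets. SOX letters (ACAATG) occurred in 17.4%, 16.6% and 7.04%, ETS letters (AGGAAGT) in 14.6%, 15.9% and 7.94%, and RUNX letters (TGTGGTT) in 9.31%, 7.64% and 3.63%. GC-box letters (SP/KLF, GGGCGG) occurred in 14.2% of windows under selective peaks, 13.4% under type II-selective peaks and 63.9% of all tested windows. The CRE half-site TGACGT occurred in 4.86%, 5.73% and 11.4% of the windows in that order, and NF-kB letters (GGGANTTCC) in 3.64%, 0% (0 of 157 windows, which allows up to 2.32% by the exact binomial interval) and 2.23%. The p53 half-site ACATGT occurred in 3.24%, 5.10% and 1.99%, the IRF motif in 2.83%, 1.91% and 2.73%, and GRHL letters (AACCNGTT) in 2.02%, 4.46% and 1.75%. All searches covered both strands, a stretch could match several motifs, and a match is only a description of the letters.

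**Figure D1:**
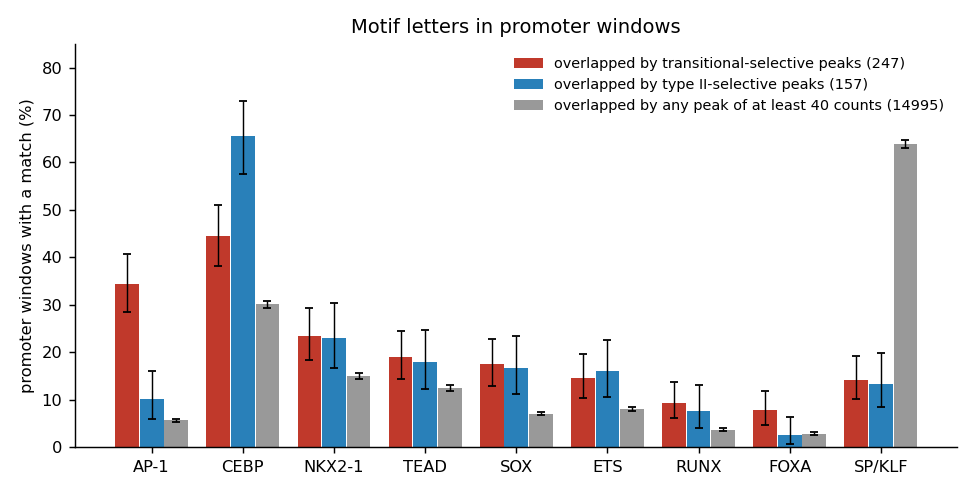
Percentage of 300-base promoter windows that hold each motif's letters on either strand (bars from 0, exact 95% binomial intervals), for windows overlapped by transitional-selective peaks, by type II-selective peaks and by any peak with at least 40 transitional counts. AP-1 letters stand at 34.4% in the first set against 10.2% and 5.59%, while GC-box letters are at 14.2% and 13.4% against 63.9% of all windows.

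Promoters were the exception among the selective peaks. Over the 9583 that lie on chromosomes with gene starts in the table, 4.21% (3.81 to 4.63) lay within 1 kb of a gene start, against 5.29% of type II-selective peaks, 2.35% of type I-selective peaks and 20.04% of all peaks with at least 40 transitional counts. Their median distance to the nearest start was 23158 bases, against 13524 over all such peaks, and 28.8% lay more than 50 kb from any start, against 20.1%. A gene body held 57.5% away from its start and 38.3% lay between genes, against 53.3% and 26.6% of all such peaks. The table gives gene ends without exons, so introns, exons and UTRs were not told apart. The peaks had a median width of 910 bases, and their share of the tested peaks ran from 10.6% on chromosome 11 to 15.4% on chromosome 13.

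The values that chose the peaks ranged widely. The median selective peak had 6.44 cpm (counts per 1000000 counts in peaks) in transitional nuclei, 1.82 cpm in type II nuclei and 2.41 cpm in type I nuclei. Its rate was 3.38 times that of type II nuclei and 2.46 times that of type I nuclei at the median. For 77.0% of the peaks the type I class was the nearer one. That share was not taken over all tested peaks, so it may not be particular to the selective ones. The smaller of both ratios was under 2 for 29.6% of the peaks, at least 3 for 26.6% and at least 10 for 32 peaks. The 4 peaks just inside the 1.7-fold threshold had 215 to 264 transitional counts. They lay in Tox and 1421, 69150 and 69335 bases from Ptprs, Slc4a7 and Gm32635. The 4 just outside had 117 to 248 counts and lay in Osbpl3 and 4217, 40667 and 331137 bases from Plekha1, Tex44 and Gm13912. At the count threshold, 134 selective peaks had exactly 40 transitional counts, and 131 peaks past the ratio threshold were left out with 39. The first 4 of each along the genome, all on chromosome 1, serve as examples. Those with 40 counts lay in Ankrd44 and Nckap5 and 152900 and 54296 bases from Pax3 and Slco6c1, with smaller ratios of 2.05 to 2.43. Those with 39 lay in Rev1 and Agfg1 and 51045 and 184754 bases from Raph1 and Pid1, with 1.90 to 2.71. Genes named by distance are the nearest among those with RNA counts, and other gene starts can lie closer.

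The 5 transitional markers that did not enter the score, Krt7, Lgals3, Cdkn1a, Clu and Itgb6, were each highest in transitional nuclei. They summed to 117 UMIs per 10000 in transitional nuclei (101 to 123 over the libraries), 23.4 in type II nuclei (18.5 to 25.2) and 55.6 in type I nuclei (50.3 to 60.1). With the 5 score genes, which the rule used, all 10 markers summed to 207, 30.5 and 73.2 in the same order. Clu, a secreted chaperone and the largest part of the sum of 117, had 65.1 UMIs per 10000 in transitional, 10.6 in type II and 24.0 in type I nuclei. Cdkn1a, the p21 cell cycle inhibitor, had 16.7, 9.71 and 15.3, and Itgb6 4.62, 0.430 and 3.70. Cdkn1a and Itgb6 thus differed little between transitional and type I nuclei. The class is defined by a range of a score, and whether it is a separate type was not tested. Of its 1167 nuclei, 104 lay within 10% above the score threshold of 38.4 per 10000, and the class median was 67.3. Its median type I score was 41.2 per 10000, between 18.9 in type II and 117 in type I nuclei, whereas its median type II score of 4.08 was the lowest, against 168 in type II and 8.26 in type I nuclei.

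Markers of other cell types were low. Mesothelial markers summed to 1.34 UMIs per 10000 in transitional nuclei (0.898 to 1.56 over the libraries), 0.0328 in type II nuclei (0.0252 to 0.0463) and 0.613 in type I nuclei (0.347 to 0.903). Nearly all of this was Msln, with 2092 transitional UMIs, while Upk3b had 0 and Wt1 had 1. Immune markers summed to 0.143 (0.103 to 0.181), 0.0441 (0.0372 to 0.0472) and 0.0409 (0.0236 to 0.0567) UMIs per 10000 in the same order of classes. Of these Cd68 had 200 UMIs and Ptprc, the pan-leukocyte marker, 2 UMIs in transitional nuclei. Airway secretory markers summed to 2.33 (0.525 to 3.83), 1.30 (0.473 to 1.72) and 1.97 (1.16 to 2.87), and ciliated markers to 0.493 (0.103 to 0.737), 0.0979 (0.0878 to 0.142) and 0.344 (0.282 to 0.435). Mesenchymal markers summed to 0.0871, 0.0105 and 0.0129. Among them Col1a1, a collagen gene, had 83 UMIs in transitional, 7 in type II and 11 in type I nuclei and Acta2, smooth muscle actin, 47, 12 and 1, while Col1a2 had 0 and Dcn 1 in transitional nuclei. Basal markers summed to 0.0160, 0.00219 and 0.00757, with 17, 5 and 5 UMIs of Trp63, 7, 0 and 4 of Ngfr and no transitional UMI of Krt5. Endothelial markers summed to 0.0371, 0.0284 and 0.0530, with 45, 34 and 52 UMIs of Pecam1, 13, 31 and 16 of Tek, and none of Cdh5 or Kdr in transitional nuclei. The part of such cells in the results below was not tested.

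The transitional class held 1167 nuclei (195, 149, 458 and 365 in libraries A to D) with 13206260 ATAC counts, the type II class 1715 nuclei with 19224987 and the type I class 1228 nuclei with 12850074. Median depth per nucleus was 10353 ATAC counts and 11971 UMIs in transitional nuclei, 8846 and 12511 in type II nuclei, and 8448 and 9704.5 in type I nuclei. Libraries A and B were shallower in ATAC, with medians over all nuclei of 4367 and 3641 counts against 9600 and 13982 in C and D. Of the 7224 nuclei, 56 had under 1000 UMIs, and 20 barcode sequences occurred in 2 libraries. Doublets were not removed here, and 13 nuclei were in the top 25% of both the type II and the transitional score.

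Selective peaks took 7.49%, 7.85%, 8.01% and 8.34% of the ATAC counts of transitional nuclei (libraries A to D). They took 2.20%, 2.29%, 2.62% and 2.49% in type II nuclei and 3.25%, 3.20%, 3.31% and 3.23% in type I nuclei. No library overlapped between the classes, which the rule itself favours.

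Because each library contributed to that choice, the peaks were chosen again without each library in turn and measured in the library left out. Held-out rates in transitional nuclei of A to D were 3.29, 3.26, 2.84 and 3.12 times those of type II nuclei, and 2.16, 2.29, 2.21 and 2.36 times those of type I nuclei. The widest of these 8 counting intervals ran from 3.21 to 3.31. In the held-out library, 86.8% of 9333 peaks in A, 82.5% of 9520 in B, 97.6% of 7035 in C and 97.8% of 6375 in D had a higher rate in transitional nuclei than in both other classes. Over all peaks with at least 40 transitional counts in the other libraries these shares were 40.1%, 39.5%, 41.5% and 39.8%. The shallower libraries A and B had median transitional counts per chosen peak of 10 and 6, against 41 and 47 in C and D. In these counts the classes of nuclei stayed fixed. In a separate run without C or without D, which hold most nuclei, the score thresholds and classes were also set anew. The rule then gave 6937 and 6678 peaks, of which 86.4% and 89.2% were among the 9923. The threshold of 40 counts stayed the same in both runs, though fewer counts were left to reach it.

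Nuclei outside the 3 classes had no part in choosing the peaks. In the 526 nuclei in the top 25% of both the type I and the transitional score, the peaks took 5.61%, 5.23%, 5.96% and 5.98% of counts in libraries A to D, below the transitional and above the type II and type I values of every library. Of the 9923 peaks, 93.5% had a higher rate there than in both type II and type I nuclei, against 42.0% of all peaks with at least 40 transitional counts. The transitional rate, for which the peaks were chosen, was reached by 9.60%, a share not taken over all tested peaks.

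The 312 nuclei with 5 or more Sox9 UMIs came almost wholly from libraries C (197) and D (114), with 1 from A and none from B. Selective peaks took 6.50% of their counts in C and 6.85% in D, against 2.62% and 2.49% in the type II nuclei of the same libraries. Of the peaks, 85.3% had a higher rate in them than in type II and type I nuclei, against 38.1% of all tested peaks. The transitional rate was reached by 25.8%, a share likewise not taken over all tested peaks. The share of counts in selective peaks went with the RNA score. It was 9.06% (9.01 to 9.12) in the 76 of them at or above the transitional score threshold and 5.88% (5.85 to 5.90) in the 236 below it. In the 99 airway secretory nuclei, all from C and D, the share was 4.57% and 5.21%, and 52.1% of the peaks were above both classes against 37.1% of all tested peaks, at a median of 3 counts per peak.

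**Figure D2:**
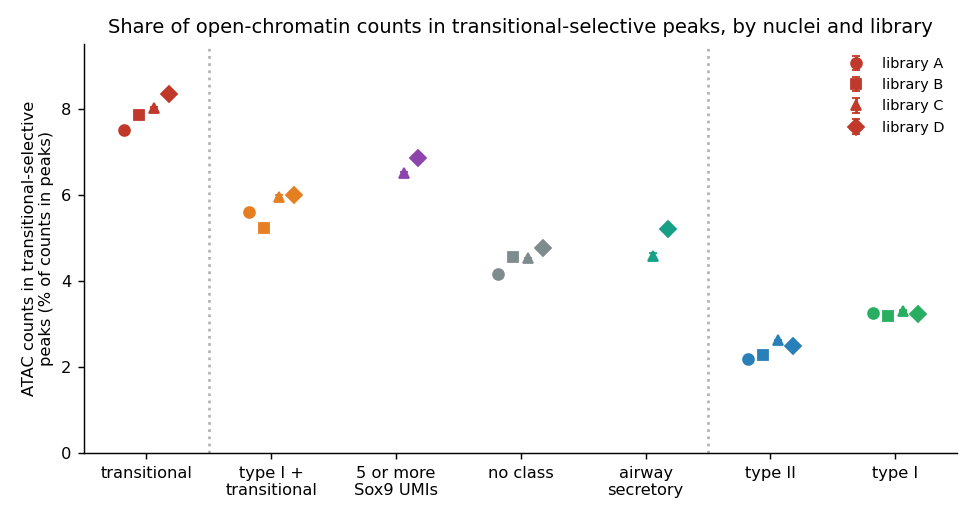
Percentage of ATAC counts in peaks that fell in the 9923 transitional-selective peaks, by group of nuclei (horizontal) and library (symbols, bars are exact Poisson 95% intervals, mostly smaller than the symbols; groups of under 40 nuclei in a library are left out). Transitional nuclei, used to choose the peaks, stand at 7.49% to 8.34%, nuclei with both scores or with 5 or more Sox9 UMIs at 5.23% to 6.85%, and type II and type I nuclei at 2.20% to 3.31%.

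The 2085 nuclei in no class showed a graded picture. Cut into 4 equal bins by their transitional RNA score, lowest to highest, selective peaks took 3.38%, 3.77%, 4.95% and 6.15% of their counts. The highest bin was 1.82 times the lowest (1.81 to 1.83), and 1.79, 1.43, 1.83 and 1.91 times when A to D were taken alone. In the highest bin 94.1% of the 9923 peaks had a higher rate than in the lowest, against 55.4% of all tested peaks. Over the same bins type II-selective peaks took 2.63%, 2.50%, 2.11% and 1.82%, and type I-selective peaks 1.02%, 1.03%, 0.940% and 0.831%. Depth moved with the bins too, though not in step: median ATAC counts were 7607, 10064, 10474 and 8491, and median UMIs 7526, 9654, 10455 and 10485.5. The part of depth in the gradient was not tested.

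**Figure D3:**
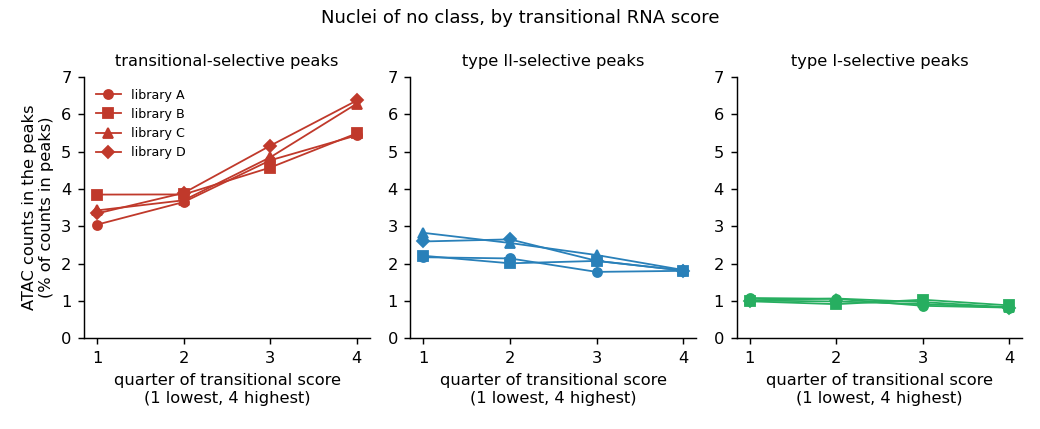
Percentage of ATAC counts in transitional-selective (left), type II-selective (middle) and type I-selective peaks (right) in nuclei of no class, in 4 equal bins of their transitional RNA score (1 lowest, 4 highest) and by library. In bin 4 the transitional-selective share is above that of bin 1 in all 4 libraries, by 1.43 to 1.91 times, while over the pooled libraries the type II-selective share goes down to 1.82% and the type I-selective share to 0.831%.

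Single nuclei spread widely within a class. The nuclei of the 3 classes chose the peaks, so the distance between their medians is a description. Among nuclei with at least 1000 counts in peaks, the median share of counts in selective peaks was 7.66% in 1039 transitional nuclei (25th to 75th percentile 5.98% to 9.74%), 2.32% in 1466 type II nuclei (1.97% to 2.80%) and 2.90% in 1078 type I nuclei (2.28% to 3.71%). Of the transitional nuclei, 96.9% were above the 95th percentile of type II nuclei and 80.4% above that of type I nuclei. Within each group the share went up with the nucleus's own transitional RNA score, with a Spearman correlation of 0.31 over the 1039 transitional nuclei, 0.30 over type II nuclei, 0.46 over type I nuclei and 0.53 over 1853 nuclei of no class. These are descriptions over nuclei that share libraries. The Spearman correlation of the same share with ATAC depth was 0.10, 0.16, 0.10 and 0.04 in these groups.

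**Figure D4:**
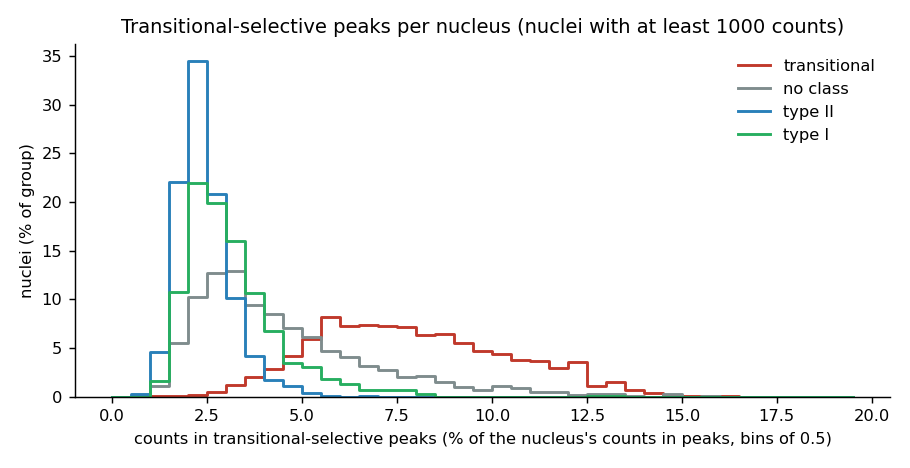
Distribution over nuclei with at least 1000 ATAC counts of the percentage of counts in transitional-selective peaks (bins of 0.5), as a percentage of the nuclei of each group. Transitional nuclei spread around a median of 7.66%, type II and type I nuclei around 2.32% and 2.90%, and nuclei of no class lie between them with a median of 3.86%.

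The peaks with the most transitional counts illustrate the class at the level of single elements. The tallest, at chr16:95682095-95683028 (mm10), lay between genes, 13935 bases from the start of Gm31845 and 19379 bases from Ets2, which encodes an ETS family transcription factor. It had 52.1, 47.0, 38.4 and 49.7 cpm in transitional nuclei of libraries A to D, 5.66, 5.14, 8.16 and 8.80 cpm in type II nuclei and 15.8, 18.8, 10.5 and 11.0 cpm in type I nuclei. Transitional values lay above all others, and the pooled rate was 5.71 times (4.77 to 6.86) the type II and 3.65 times (3.06 to 4.37) the type I rate.

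The Cldn4 start, chr5:134946543-134947445, covers the Cldn4 promoter printed above and had 41.3, 51.8, 45.1 and 45.1 cpm in transitional nuclei, 18.4, 17.5, 19.7 and 16.2 cpm in type II nuclei and 27.1, 22.6, 22.03 and 23.1 cpm in type I nuclei. It was thus open in all 3 classes, at 2.49 and 1.92 times the type II and type I rates. The RNA of Cldn4, which the rule used, differed far more, with 7.37 UMIs per 10000 in transitional, 0.126 in type II and 0.761 in type I nuclei. Of the other transitional score genes, Krt19 had 1 selective peak near it and Krt8, Krt18 and Sfn had none within 2 kb.

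A peak in Lmo7, chr14:101804867-101805748, was highest in transitional nuclei, while Lmo7 RNA was highest in type I nuclei. The rule itself favours both, as it chose the peak by these rates and scored type I nuclei by Lmo7 RNA. The peak had 51.5, 55.8, 39.8 and 41.6 cpm in transitional nuclei, 15.1, 20.5, 14.8 and 14.1 cpm in type II nuclei and 30.1, 15.05, 22.7 and 25.6 cpm in type I nuclei. Both readouts were higher in transitional than in type II nuclei. The Lmo7 RNA itself was 16.01 UMIs per 10000 in transitional, 4.18 in type II and 28.0 in type I nuclei, and Lmo7 held 4 selective peaks among its 30 tested ones. The remaining 7 of the 10 peaks with most counts had 525 to 598 transitional counts each. They lay in Ahnak2 and Iffo2 and 2000, 4570, 4564, 42325 and 15182 bases from Sqstm1, Gadd45g, Swap70, Tex44 and Naif1.

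The largest ratios belonged to smaller peaks that were nearly closed in both other classes. Among peaks with at least 100 transitional counts, the one with the highest smaller ratio lay 7530 bases from Brpf3, a bromodomain protein gene, at chr17:28792719-28793596. It had 106 transitional counts against 8 in type II and 6 in type I nuclei, 19.3 times (9.44 to 45.8) and 17.2 times (7.64 to 47.9) their rates. The next peaks had smaller ratios of 10.6 to 14.5. Some lay in Arhgap24, Gm2895, Cflar and D630003M21Rik. Others lay 49201, 4171, 35179, 5135 and 14435 bases from Corin, Csgalnact1, Nrip1, Cdc42ep5 and Cdc42bpa. Arhgap24 shows that such a peak need not go with its gene's RNA. Arhgap24, which encodes a GTPase-activating protein, had 0.0179 UMIs per 10000 in transitional nuclei against 0.0363 in type II and 0.0454 in type I nuclei, and Cflar, an inhibitor of caspase 8, had 0.510 against 0.800 and 0.676. Of the 69 selective peaks looked up by name, 66 had their highest rate in transitional nuclei in all 4 libraries, which the rule itself favours.

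**Figure D5:**
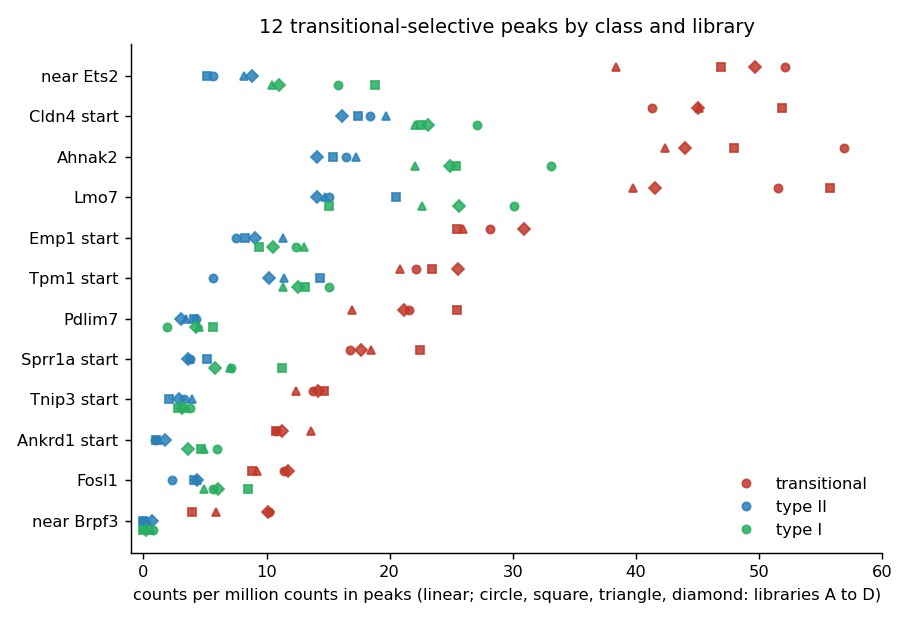
Rates of 12 transitional-selective peaks in cpm (counts per 1000000 counts in peaks, linear axis) in transitional (red), type II (blue) and type I nuclei (green), with a symbol per library. The peak near Ets2 is at 38.4 to 52.1 in transitional nuclei and at most 18.8 elsewhere, whereas the Cldn4 start and the Lmo7 peak are also well open in type I nuclei.

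RNA of the same nuclei is a second readout that the choice of peaks did not use, apart from the 18 genes that define and filter the classes, which were left out. A gene was called higher when its RNA was at least 2-fold above both other classes, with counts under 3 set to 3. Of 14936 genes with at least 30 UMIs, 983 (6.58%) were higher in transitional nuclei and 443 (2.97%) lower. Genes with a selective peak in or within 2 kb of them were 4014 of the 18453 with any tested peak (21.8%). Of the 3124 with enough UMIs, 355 (11.4%, 10.3 to 12.5) were higher, against 5.45% (5.03 to 5.91) of the 10468 genes that had tested peaks but no selective one. Genes with a type II-selective but no transitional-selective peak were higher in 2.55% and those with a type I-selective one in 3.74%.

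By the share of a gene's peaks that were selective, the share of higher genes was 3.07% (1.24 to 6.22) where under 10% of the peaks were selective, 7.22% from 10% to 25%, 13.1% from 25% to 50%, and 20.04% (16.8 to 23.6) where at least 50% were. Each gene in these bins has a selective peak, so the lowest bin holds only genes with many tested peaks and genes with few fall in the higher bins. The median RNA level of the genes fell over these bins, at 0.821, 0.442, 0.219 and 0.127 UMIs per 10000, and low genes can pass the filter through their transitional UMIs. With at least 30 UMIs asked of type II and type I nuclei alone, a filter chosen after the data were seen, the shares were 2.64% (0.976 to 5.66), 5.39% (4.16 to 6.86), 9.42% (7.72 to 11.4) and 11.5% (8.77 to 14.7). By number of selective peaks instead, the share of higher genes was 10.8% (9.46 to 12.2) with 1 and 11.8% (9.33 to 14.6) with 2. It was 13.8% (10.3 to 17.9) with 3 or 4 and 12.9% (7.42 to 20.4) with 5 or more, and these intervals overlap. The median gene with a selective peak did not stand apart: its smaller log2 ratio was -0.15, against -0.14 over all genes tested. Seen from the RNA, 38.3% of the higher genes with tested peaks had a selective peak, against 21.8% of the lower genes and 21.9% of the rest.

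At gene starts the link was closer. Of 141 genes with a start within 1 kb of a selective peak, 65 (46.1%, 37.7 to 54.7) were higher in RNA and 3 lower, against 6.14% of 10362 genes with a start near any tested peak. These are low genes, with a median of 0.0613 UMIs per 10000 over the classes against 0.238, and a gene can pass the filter through its transitional UMIs alone. Under the filter on type II and type I UMIs alone, 32 of 104 (30.8%, 22.1 to 40.6) were higher against 4.03% of 9880. With no filter the share was 31.9% of 260 against 6.53%. The same filter on type II and type I UMIs brought the share of all genes with a selective peak to 7.63% (6.69 to 8.66), against 3.24% (2.90 to 3.61) of genes with none. Of the genes with overlapped windows and enough UMIs, 17 of 29 with AP-1 letters (58.6%, 38.9 to 76.5) were higher and 33 of 58 without them (56.9%, 43.2 to 69.8). Under the filter on type II and type I UMIs alone these were 12 of 24 (29.1% to 70.9%) and 14 of 35 (23.9% to 57.9%), and the intervals overlap under both filters.

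Apart from Cldn4, a score gene that was not tested, the genes whose promoters are printed above were among the higher ones. Emp1 RNA was 0.449, 0.353, 0.579 and 0.705 UMIs per 10000 in transitional nuclei of libraries A to D, 0.0126, 0.0289, 0.0172 and 0.0287 in type II nuclei and 0.0253, 0.0283, 0.0389 and 0.0535 in type I nuclei. Its promoter peak had 28.2, 25.4, 25.99 and 30.9 cpm in transitional nuclei, 7.54, 8.22, 11.3 and 9.08 cpm in type II nuclei and 12.4, 9.40, 13.05 and 10.6 cpm in type I nuclei. Neither readout overlapped between transitional and other nuclei in any library.

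Sprr1a RNA was 1.84, 2.95, 2.38 and 2.08 UMIs per 10000 in transitional nuclei, 0.0189, 0.107, 0.0481 and 0.0399 in type II nuclei and 0.0469, 0.316, 0.253 and 0.120 in type I nuclei. Pooled, this was 47.3 times (39.1 to 57.7) the type II and 12.1 times (10.6 to 13.8) the type I level, while its promoter peak was at 4.81 and 2.61 times. Tnip3 RNA was 2.39, 2.90, 2.51 and 2.54 UMIs per 10000 in transitional nuclei, 0.0347, 0.0661, 0.0653 and 0.0575 in type II nuclei and 0.282, 0.269, 0.408 and 0.425 in type I nuclei. Its promoter peak was at 3.99 and 4.03 times the type II and type I rates. Both genes were thus near absent in type II nuclei and low in type I nuclei, in every library.

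Ankrd1 RNA totalled 599 UMIs in transitional, 5 in type II and 56 in type I nuclei, 9.05 times (6.87 to 12.1) the type I level. Its promoter peak had 10.8, 10.8, 13.6 and 11.2 cpm in transitional nuclei, 0.943, 1.03, 1.20 and 1.73 cpm in type II nuclei and 6.02, 4.70, 4.92 and 3.59 cpm in type I nuclei. Of the 6 printed promoters it had the largest ratio to type II nuclei, 8.90 times (5.86 to 14.05) their rate. Anxa8 had 455, 4 and 57 UMIs in the same order of classes. Other promoters with many counts at higher genes, also picked after their values were seen, were Ampd3 (AMP deaminase), Prss23 (a serine protease), Tmem40, Sdcbp2 (syntenin 2), Cxcl10 (an interferon-induced chemokine) and Nppb (brain natriuretic peptide), the last at 38 transitional UMIs.

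The 10 gene lists are set against all genes. Of the genes with tested peaks 21.8% had a selective peak, and of those with enough UMIs 6.58% were higher in RNA. Of the 61832 tested peaks counted gene by gene in or within 2 kb of them, 6185 (10.003%) were selective. That is the share the lists are compared with, and it is below the 13.1% of all tested peaks wherever they lie. Of 19 actin and adhesion genes, 10 had a selective peak, 16 of their 135 tested peaks (11.9%) were selective, and 11 of 19 (57.9%) were higher in RNA with none lower. The list's median smaller log2 ratio was 1.38, against -0.14 over all genes. Pdlim7, a LIM-domain protein of actin fibres, had a peak at chr13:55510312-55511344 with 21.6, 25.4, 16.9 and 21.2 cpm in transitional nuclei, 4.24, 4.11, 3.48 and 3.03 cpm in type II nuclei and 1.88, 5.64, 4.49 and 4.27 cpm in type I nuclei. Its RNA was 57.8 times (35.8 to 99.8) the type II and 13.8 times (10.1 to 19.5) the type I level. Tpm1 (tropomyosin 1) had a selective peak at its start, at 2.21 and 1.83 times the type II and type I rates, with RNA at 2.24 and 1.61 times. Myh9, the heavy chain of non-muscle myosin IIA, had 2 selective peaks and RNA at 2.05 and 1.36 times, which missed the call against type I nuclei. Anxa1 (annexin A1) and S100a10, partner of annexin A2, had 1 peak each and RNA at 2.36 and 2.81 times the type I level. Tpm2, Myl9, Flna, Tpm4 and S100a6 were higher in RNA without a selective peak.

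Integrin and matrix genes had selective peaks in 10 of 18, and 19 of their 135 peaks (14.1%) were selective, while 6 of 17 tested (35.3%) were higher in RNA and Itga2 alone had both. The median smaller log2 ratio was 0.36. Itga2, the collagen-binding integrin alpha 2, had 2 selective peaks and RNA at 33.6 and 37.4 times the type II and type I levels. Fn1 (fibronectin), Itgb4, Tnc, Plaur and Plau were higher without one. Itgb6, the epithelial subunit of the integrin that activates TGF-beta, held 5 selective peaks among 21, and its RNA was 10.7 times the type II but 1.25 times the type I level. Lama5, Lamb3, Lama3, Col4a1, Col4a2, Itga6 and Timp2 held 1 to 3 selective peaks each and did not pass the RNA call. The Timp2 peak, in the gene of a metalloproteinase inhibitor, was at 6.36 and 2.58 times the type II and type I rates.

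Keratin and junction genes had selective peaks in 8 of 15, with 15 of their 96 peaks (15.6%) selective. Of the 11 that the score did not use and that had enough UMIs only Krt80 was higher (9.09%), with a median smaller log2 ratio of 0.43. Tjp1, Cdh1 and Pkp2, genes of tight junctions, adherens junctions and desmosomes, held 4, 3 and 2 selective peaks. Their RNA was at 1.58, 1.74 and 1.57 times the type II level and 0.663, 1.16 and 0.659 times the type I level. Jup (plakoglobin) and Dsp (desmoplakin) each held 1.

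Growth and repair genes were higher in 7 of 11 (63.6%), with selective peaks at 4 (36.4%), 6 of their 41 peaks (14.6%) selective, and a median smaller log2 ratio of 1.44. Nupr1 (a stress-induced chromatin protein), Clu, Ptgs2 (prostaglandin synthase 2), Tnip3, the cytokine gene Lif and the heat-shock genes Hspa1a and Hspa1b were higher. Hspa1a and Hspa1b are near-identical copies, so their counts may be split between them. Il33, an alarmin cytokine, had a selective peak while its RNA was 0.0756 times the type II level and 3.79 times the type I level.

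YAP target genes had selective peaks in 4 of 14 (28.6%), though 6 of their 86 peaks (6.98%) were selective, below the share over all genes. Of 13 tested, 4 (30.8%) were higher, with a median smaller log2 ratio of 0.03. Ankrd1 and Crim1, which encodes a BMP-binding membrane protein, had both. Ccn2 and F3 (tissue factor) were higher without a selective peak, at 4.48 and 9.00 times the type I level. Ccn1, Amotl2 and Ajuba, also YAP targets, had none and were at 1.43, 0.784 and 1.02 times the type I level.

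AP-1 genes themselves had a selective peak in 1 of 10, Fosl1, and 1 of their 35 peaks (2.86%) was selective, both below the shares over all genes. In RNA 3 of 10 were higher, with a median smaller log2 ratio of 0.45. Fosl1, a FOS family subunit, had 0.173 UMIs per 10000 in transitional, 0.0114 in type II and 0.0204 in type I nuclei, 15.3 and 8.49 times as much, and its peak was at 2.56 and 1.83 times. Atf3 and Maff were the other 2 higher genes. Fos had 1.07 UMIs per 10000 in transitional, 3.16 in type II and 1.59 in type I nuclei, Fosb 0.351, 1.14 and 0.363, and Jun 3.99, 2.81 and 2.67.

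Of 8 genes for EGF ligands and receptors, Ereg, Tgfa and Egfr had selective peaks (37.5%), at 5 of 33 peaks (15.2%), and the ligands Areg and Ereg, 2 of 7 tested (28.6%), were higher in RNA, Ereg at 4.09 and 3.56 times the type II and type I levels. Of 11 TGF-beta genes, 4 (36.4%) had selective peaks, at 8 of 63 peaks (12.7%), among them Tgfbr2, Smad3 and Thbs1, and 4 were higher, among them Thbs1, Tgif1 and Inhba. Smad3, the signal-carrying transcription factor, held 5 selective peaks among 21, with RNA at 0.934 and 0.765 times the type II and type I levels. The median smaller log2 ratio was -0.27 for the EGF list, 0.13 for the TGF-beta list and 0.12 for the p53 list. Of 12 genes of p53 signalling and arrest, Gdf15 (a stress cytokine) and Phlda3 had selective peaks, 16.7% of the list against 21.8% of all genes and 3 of 28 peaks (10.7%). Of 11 tested Gdf15 alone was higher (9.09%), at 2.67 and 5.997 times the type II and type I levels.

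Transcription factor genes had selective peaks in 8 of 25 (32.0%), though 17 of their 179 peaks (9.497%) were selective, near the share over all genes. RNA was higher for 4 (17.4%) and lower for 1 of 23, with a median smaller log2 ratio of 0.01. Ehf, an epithelial ETS factor, had a selective peak and RNA at 2.30 and 6.43 times the type II and type I levels. Klf4, Etv4 and Myc were higher with none. Etv5, a type II ETS factor, had a selective peak though its RNA was 0.0638 and 0.420 times the type II and type I levels. Runx2, Tead1 and Grhl2 held 4, 3 and 3 selective peaks, with RNA below the type I level at 0.463, 0.517 and 0.788 times.

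Some selective peaks stood in runs. Joined over gaps of up to 10 kb, the 9923 peaks formed 8572 groups, 1112 of at least 2 and 7 of at least 5. All tested peaks were not joined in the same way. Whether selective peaks stand in runs more often than other peaks was therefore not tested. The largest, at chr4:89038606-89071555, held 9 selective peaks of 9 tested ones over 33.0 kb at the non-coding RNA gene Wincr1. Together they had 62.6 cpm in transitional, 17.0 cpm in type II and 18.8 cpm in type I nuclei. Others of 5 or 6 lay at Gm33570, Vmp1, Cubn, Abtb2, Plekhh1 and Nsmce2. At Abtb2, 5 of 5 tested peaks over 16.4 kb were selective, at 72.3 cpm in transitional, 15.7 cpm in type II and 31.1 cpm in type I nuclei.

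The genes with the most selective peaks were long ones. Cubn held 11 of 14 tested peaks, Rad51b 10 of 46, Arhgap26 9 of 64 and Nsmce2 9 of 27. The 117 genes with at least 5 had a median length of 319 kb, against 16.9 kb for genes with tested peaks and none selective. Cubn, which encodes the endocytic receptor cubilin, had only 30, 19 and 15 UMIs in transitional, type II and type I nuclei. Dlgap1 held 8 of 24 and was higher in RNA, at 6.44 and 2.44 times the type II and type I levels, while the RNA of Rad51b, Asap1, Glis3, Babam2, Immp2l, Gm15270, Cubn, Arhgap26 and Nsmce2 did not pass the call.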

How the data were processed

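Nuclei of cultured mouse alveolar cells were measured for RNA and ATAC together. The authors deposited UMI counts of 32285 genes and ATAC counts of 116068 peaks in 7224 nuclei, each kind as 1 pooled matrix of unnormalized values. The submitters' processing notes name Signac 1.10.0, Seurat 4.3.0 and Cell Ranger 6.0.1, and give mm10 and GRCm38 as builds. The peak caller, like any filter on nuclei, was not given in the sources used here. The total depth was 88357665 UMIs and 79738800 ATAC counts, and lists of multiplexing oligos that name other samples were not used here.

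The members and gene lists were chosen with earlier results of these data known. ATAC counts were summed per class and divided by the class total, and RNA was summed per class as UMIs per 10000 (Python 3.11.15, numpy 2.4.6, scipy 1.17.1, pandas 2.3.3, matplotlib 3.10.9). Rates and their ratios have exact 95% intervals (Poisson, conditional binomial for ratios, Clopper-Pearson for shares). Since no label ties nuclei to samples, the planned edgeR comparison of Sox9-Cre with Cre was not run, and nuclei were not used as replicates. Gene positions (26627 genes, 82.5% of the matrix) and promoter windows (32851) came from RefSeq tables of GRCm38.p6. The 340 selective peaks on chromosomes with no start in them, 339 of these on chromosome 18, were left out of location shares. The motif shares of promoter windows and the RNA results at gene starts leave out chromosome 18 as well. A higher gene had at least 30 UMIs, over 3 transitional UMIs and at least 2-fold more per 10000 than both other classes. Named peaks are the 10 with the highest smaller ratio among those with at least 100 counts, the 10 with most counts, up to 3 per gene list, those nearest each threshold and the 10 genes with most members. Further named promoters were picked with their values in view, and some listed genes are not reported here. The peak rule and the RNA call were run on simulated Poisson counts per class, which hold no spread between nuclei or libraries. Raised peaks and genes were set past the thresholds of the calls. The rule that puts nuclei into classes was not simulated. Alternatives covered thresholds, depth, scaling, libraries and windows.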

Additional observations from a re-analysis of the deposited data

How the results depend on the processing

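Over 150 recomputed values under the alternatives, 114 stayed within their counting interval or, for counts, within 1.5 times, and 36 moved. A reversal was defined only for the ratios in nuclei of no class and in held-out libraries, and none of these reversed. The number of selective peaks ranged from 4014 with at least 100 counts to 12776 at a threshold of 1.5, and 5516 of the 6792 peaks chosen from the top 10% of each score were among the 9923. In nuclei of no class the highest over the lowest bin of the transitional score was 1.84 without library A, 1.84 without library B, 1.75 without library D, 1.71 at a threshold of 1.5, 1.97 at a threshold of 2, 1.81 with at least 20 counts, 2.27 with the top 10% of each score, 1.80 with median-ratio scaling, 1.79 without the 5% of nuclei with most UMIs, 1.80 with at least 1000 counts per nucleus and 1.75 with 0 Sox9 UMIs. The share within 1 kb of a gene start was 4.79% without library C, 4.76% without library D, 4.72% at a threshold of 1.5 and 5.11% with at least 100 counts. Higher genes near selective peaks numbered 220 with at least 100 counts, 548 at a 1.5-fold call and 221 with at least 30 UMIs asked of type II and type I nuclei alone. At gene starts the share of higher genes was 30.8% under that filter and 31.9% with no filter. AP-1 letters stood in 27.4% of windows at a threshold of 1.5 and in 41.6% with at least 100 counts, SOX letters in 12.8% with at least 100 counts, and SP/KLF letters in 19.5% and 19.2% under the same settings in that order. With each peak counted as 0 or 1 per nucleus, the share in nuclei high in both scores was 5.36%, and held-out ratios were 3.23 over type II and 2.14 over type I in library A, 2.81 over type II in C, and 2.91 and 2.25 in D. The causes were not tested.

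No paired analysis was possible because no label ties the nuclei to samples, so the replicate block and the comparison of Sox9-Cre with Cre were not run. Motifs in the central 300 bases of the peaks were not run, since no genome was used here, so motif shares describe promoters, a small part of these peaks. All values rest on 1 pooled sample, and intervals do not cover differences between cultures or mice. Libraries A and B, the shallowest, limit the calls for single peaks there.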
